A study of Homo sapiens and Mus musculus with 27 samples.

Results

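Bortezomib given with AMD3100 was compared with bortezomib given with TM in tumours of the 4T1 line, a mouse mammary carcinoma, across every gene of the 4T1 count table. The comparison holds 6 libraries, 3 of each arm, of the 27 libraries in the series, chosen by the treatment in their labels. Mice of the Balb/c strain carried the tumours. Both arms received 1 mg/kg bortezomib every 4 days. One arm also received TM, which the labels do not spell out, at 0.05 mg/ml in the drinking water, and the other 5 mg/kg AMD3100 every 2 days. A further 3 tumours from vehicle mice shared the fit, and no 4T1 group had bortezomib alone, so a difference between the arms shows neither partner's effect by itself. The labels of vehicle replicate 1 also name a human breast line, MDA-MB-231, beside the 4T1 title. Libraries are numbered as biological replicates in the labels, which do not say whether each is 1 animal. In the main fit, p-values set the difference between the arms against the spread between libraries within groups, the 3 vehicle libraries included.

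Bortezomib is a reversible inhibitor of the chymotrypsin-like site of the 20S proteasome, formed by the subunit Psmb5, and cells with a blocked proteasome are known for inducing cytosolic and endoplasmic reticulum (ER) chaperones. AMD3100 is an antagonist of the chemokine receptor Cxcr4, whose ligand Cxcl12 guides leukocytes and tumour cells. The genes of cholesterol synthesis are switched on together by the transcription factor SREBP2 when sterol in the ER membrane is low. Keratins and junction proteins mark epithelial cells such as those 4T1 derives from, and Krt8, Krt18, Epcam and Cdh1 were detected in all 9 libraries.

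No gene separated the arms after adjustment over all 15846 genes tested (0% of them), and the smallest adjusted p in edgeR's quasi-likelihood test was 0.996. An unadjusted p under 0.05 was reached by 454 genes (2.87%), 221 of them higher with AMD3100 (1.39%) and 233 lower (1.47%). Where no gene differs, a share of 0.05 is expected at this threshold, so 2.87% is not an excess. limma-voom also called 0 genes, with 465 at an unadjusted p under 0.05. Without TM replicate 1 the 454 genes became 1417 in edgeR, still with 0 called. DESeq2, fitted as an alternative on the same counts, called 6 genes (0.0379%), all lower with AMD3100. Among them were Rnase2a, Ccl24, Car4, Krt19 and Pmp22. Each gene named below had an edgeR adjusted p of 0.996, so its values are a description of these tumours. edgeR also called 0 genes for either arm against vehicle. The common biological coefficient of variation, the relative spread between libraries of a group, was 0.316.

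The tumours of each arm were not alike in their lymphocyte genes. The mean level of 12 B cell and plasma cell genes, in log2 CPM (a gene's counts scaled to the library total), was 6.21, 4.65 and -0.98 in TM replicates 1, 2 and 3. It was 6.41, -0.22 and 5.42 in AMD3100 replicates 1, 2 and 3 and -0.40, 0.11 and 3.95 under vehicle. TM replicate 3 and AMD3100 replicate 2 were thus low and the other 4 treated tumours high, and the mean of 11 T cell genes gave the same split, at 5.38, 3.95 and 2.41 in the TM arm and 6.05, 2.66 and 5.03 in the AMD3100 arm. The first principal component of all 9 libraries, with 51% of the variance, followed this split rather than the arms among the 6 treated tumours. Its scores were 64.0, 18.3 and -50.8 in the TM arm and 76.1, -48.6 and 42.7 in the AMD3100 arm. Among the 6 treated libraries, the log2 CPM of TM replicate 3 correlated best across genes with AMD3100 replicate 2 (Pearson r = 0.977). Its correlation was slightly lower with TM replicate 2 (r = 0.970) and lower again with TM replicate 1 (r = 0.945). For some genes and lists below, results are therefore also given without TM replicate 3 and AMD3100 replicate 2. The 15846 tested genes then became 16158, of which edgeR called 0, with 311 at an unadjusted p under 0.05. In bulk tissue, fewer cells of a type and less RNA per cell cannot be told apart.

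**Figure D1:**
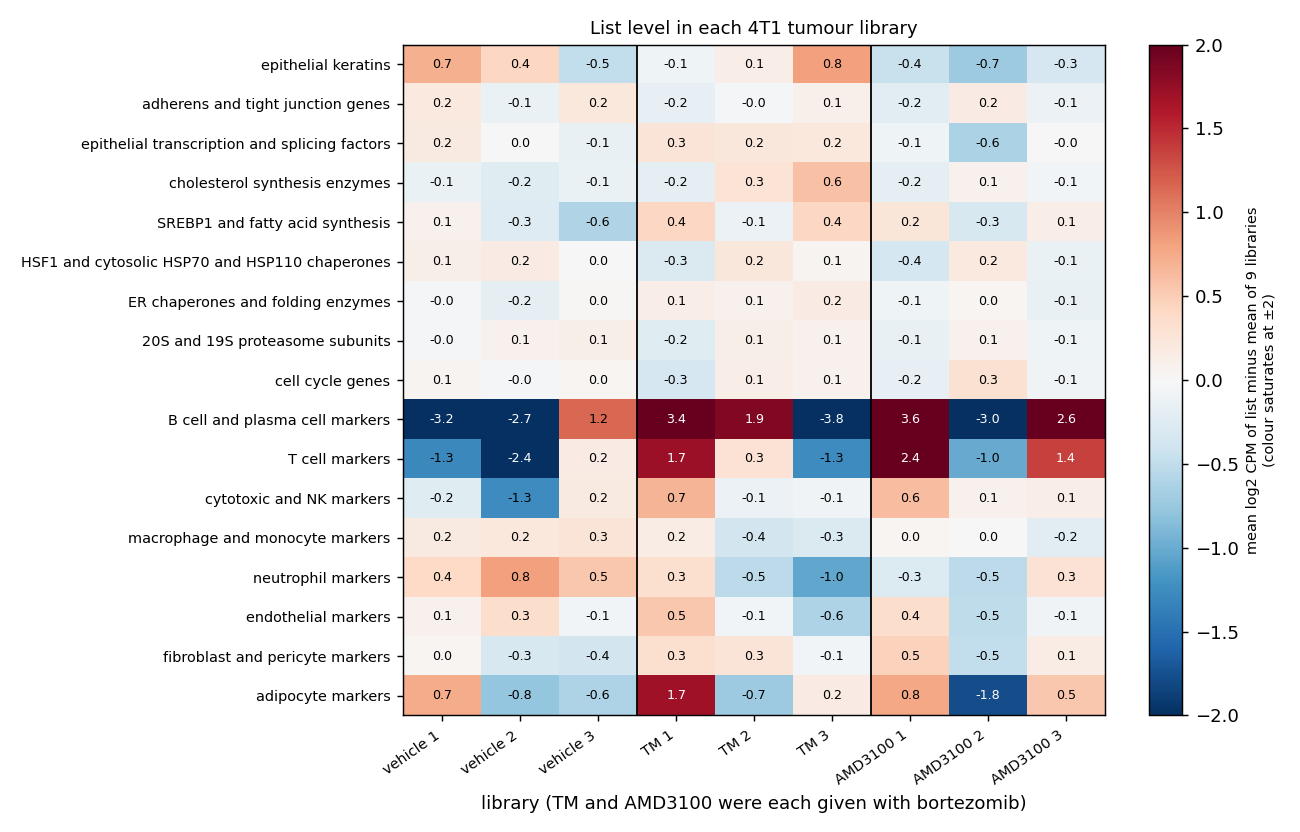
Level of 17 gene lists (rows) in 9 libraries of 4T1 tumours (columns), as the mean log2 CPM of the tested members minus the mean of the 9 libraries; red is higher, blue lower, and the number in each cell is the value. The B cell row runs from -3.8 in TM replicate 3 to 3.6 in AMD3100 replicate 1, while the epithelial, sterol, chaperone and proteasome rows stay between -0.7 and 0.8.

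Among the 10 genes named as lower with AMD3100, by order of p among genes whose arms did not overlap, Rnase2a came first. It belongs to the eosinophil-associated ribonucleases, a multigene family whose near-identical copies can share reads, so its counts are uncertain. Rnase2a stood at 18.4, 12.1 and 30.6 CPM in TM replicates 1 to 3, at 4.28, 6.24 and 3.17 CPM in AMD3100 replicates 1 to 3 and at 27.1, 31.7 and 24.6 CPM under vehicle. All 3 AMD3100 tumours lay below the other 6. The difference was -2.16 ± 0.36 (log2, SE; unadjusted p = 0.000163 in edgeR), and DESeq2 gave -2.15 with an adjusted p of 7.97e-06. Ccl24, an eotaxin chemokine that attracts eosinophils, was at 12.8, 7.88 and 7.998 CPM with TM, 1.49, 2.76 and 3.05 CPM with AMD3100 and 11.6, 21.4 and 11.7 CPM under vehicle. Again each AMD3100 tumour lay below the other 6, and the difference was -1.97 ± 0.37 (DESeq2 adjusted p = 0.000598). Leaving out any of the 6 treated libraries in turn, DESeq2 still called these 2 genes in 6 of 6 fits. It called Krt19 and Car4 in 2 of those 6 fits each, and Pmp22 in 1. The numbers of genes it called in those fits were 55 without TM replicate 1, 5 without TM replicate 2, 2 without TM replicate 3, 3 without AMD3100 replicate 1, 2 without AMD3100 replicate 2 and 5 without AMD3100 replicate 3. Leaving out TM replicate 1 was thus the setting with the most calls.

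The other genes named as lower with AMD3100 had other roles. Car4, a membrane-bound carbonic anhydrase, stood at 12.8, 18.0 and 16.9 CPM with TM, 8.37, 6.44 and 4.90 CPM with AMD3100 and 9.23, 11.7 and 8.52 CPM under vehicle (-1.28 ± 0.24, log2 and SE; DESeq2 adjusted p = 0.00422). Its TM tumours were the high ones, above all 3 vehicle tumours, and its AMD3100 tumours lay below the other 6. The integral membrane protein gene Pmp22 was at 55.6, 56.8 and 62.7 CPM with TM and at 40.4, 40.1 and 42.7 CPM with AMD3100, with 53.1, 52.5 and 46.2 CPM under vehicle (-0.51 ± 0.10; DESeq2 adjusted p = 0.013). Also named were Actr3b, an isoform of the actin-nucleating Arp2/3 complex (-0.93), Nabp1, a single-stranded DNA binding protein (-0.37), Igip (-0.65) and the palmitoyltransferase Zdhhc2 (-0.62). These are log2 differences, with unadjusted p from 0.00248 for Actr3b to 0.00398 for Zdhhc2. Without TM replicate 3 and AMD3100 replicate 2, the log2 difference in edgeR was -2.06 for Rnase2a, -2.20 for Ccl24, -1.25 for Car4, -1.12 for Krt19 and -0.46 for Pmp22.

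**Figure D2:**
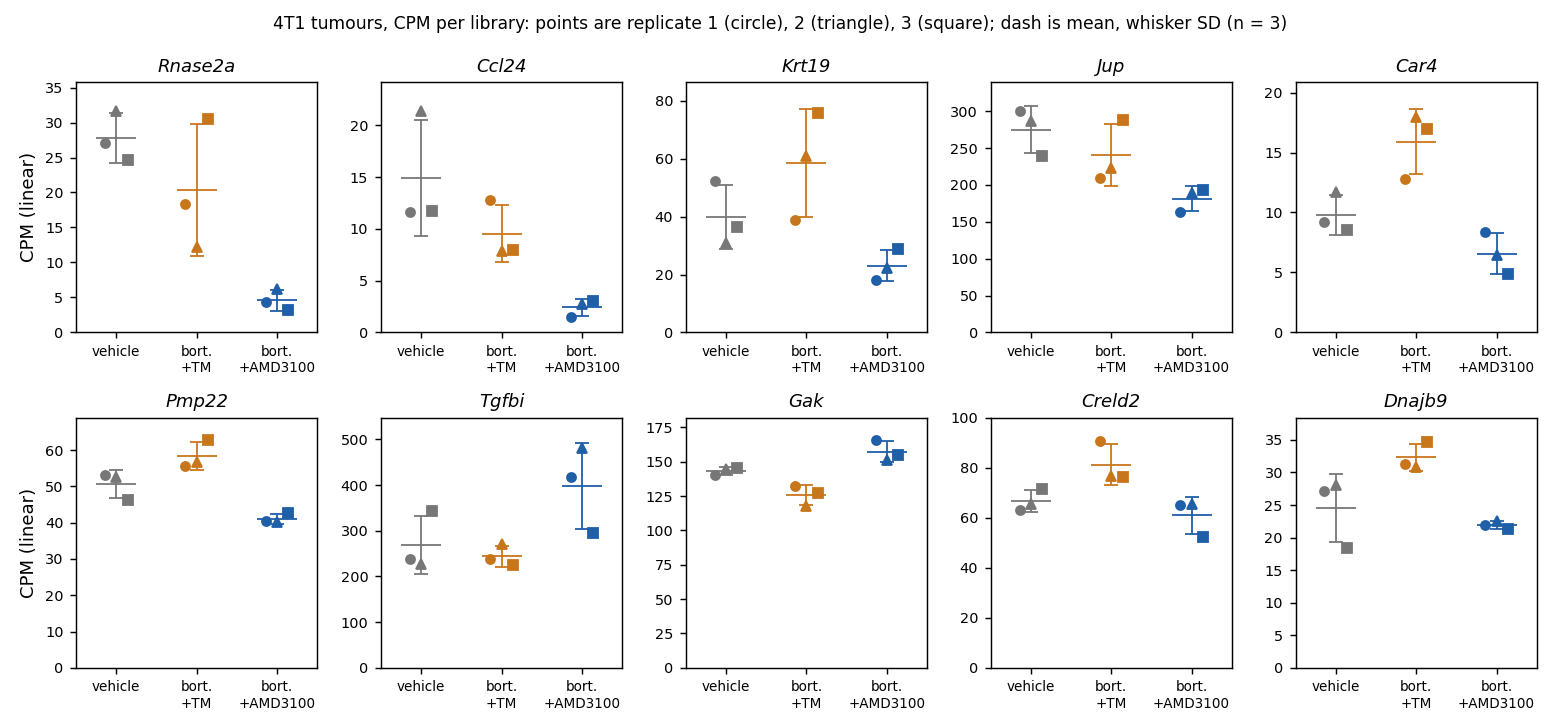
CPM (linear axis from 0) of 10 genes in 9 libraries of 4T1 tumours, by group; circles, triangles and squares are replicates 1, 2 and 3, dashes the mean and whiskers the SD of 3 libraries. In all panels but Tgfbi and Gak the AMD3100 points lie below the TM points, as for Rnase2a, at 3.17 to 6.24 CPM against 12.1 to 30.6 CPM.

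Of the 10 genes named as higher with AMD3100 by the same order, Gak, a kinase that helps strip clathrin from vesicles, had the smallest p (0.00521). It stood at 132, 118 and 128 CPM with TM and 166, 151 and 155 CPM with AMD3100, a difference of 0.32 ± 0.089 (log2, SE). Tgfbi, an extracellular matrix protein induced by TGF-beta, stood at 238, 270.0 and 225 CPM with TM, 418, 481 and 295 CPM with AMD3100 and 237, 227 and 343 CPM under vehicle. Only AMD3100 replicates 1 and 2 exceeded all vehicle tumours, and the difference between the arms was 0.70 ± 0.21. Slco5a1, of the organic anion transporter family, had the largest of these differences at 1.16 ± 0.34, from 1.83, 3.47 and 1.71 CPM with TM to 4.83, 6.44 and 4.45 CPM with AMD3100. The remainder were Ppp1r18 (0.33), the chromatin remodeller Chd2 (0.36), the autophagy gene Epg5 (0.62), the RNA-binding protein Mex3b (0.52), Ccdc84 (0.48), the Rab exchange factor Dennd4a (0.49) and Zswim4 (0.38), all in log2.

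**Figure D3:**
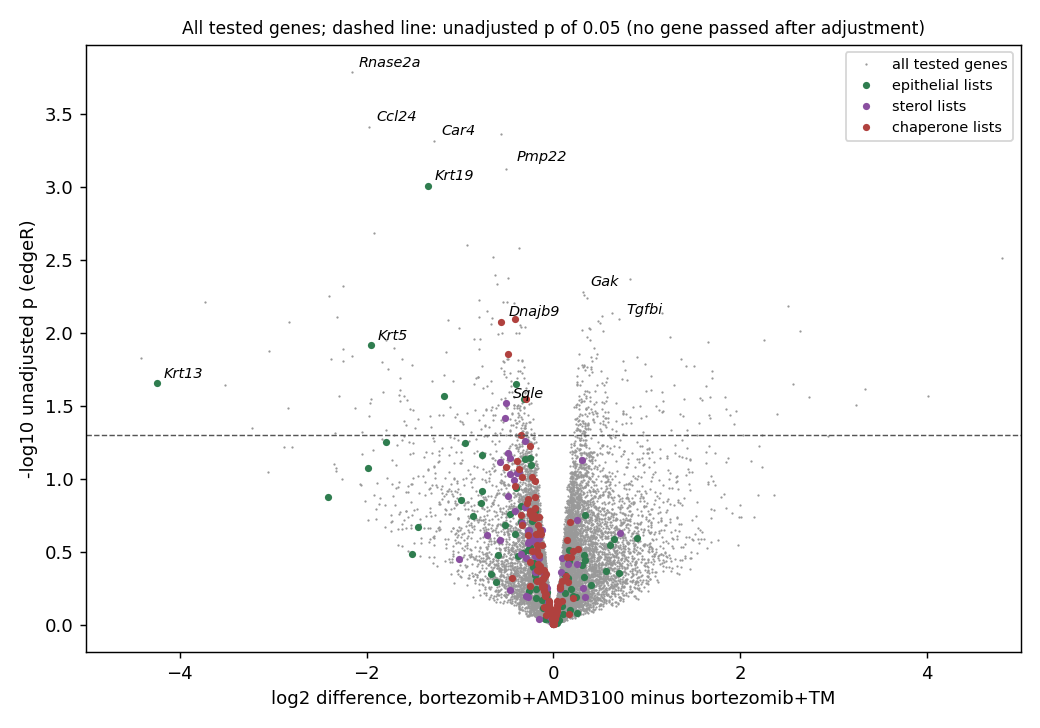
Log2 difference of AMD3100 minus TM (x) against -log10 of the unadjusted edgeR p (y) for 15846 tested genes, with members of the epithelial lists (green), the sterol and lipid lists (purple) and the chaperone lists (red); 3 genes fall outside the x range. Above the dashed line at an unadjusted p of 0.05, the coloured genes lie left of 0; none passed after adjustment.

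The epithelial, sterol and chaperone lists were drawn up with earlier results of these data known, so their counts are a description only. Epithelial genes came from 4 lists with 85 tested members: keratins, adherens and tight junction genes, desmosome and hemidesmosome genes, and epithelial transcription and splicing factors. Of these, 6 were lower with AMD3100 at an unadjusted p under 0.05, against 1.47% of all genes, and 0 higher. The AMD3100 tumours lay wholly below the TM tumours for 10 of the 85, against 3.69% of all genes, and wholly above for 0, against 3.68%. Their median log2 difference was -0.125, against 0.012 over all tested genes, and 64.7% of members were below 0, against 48% of all genes. Krt4, Krt6b, Krt23, Cldn8, Dsg3 and Grhl3 were too low to test.

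Keratins had the median farthest from 0 of these lists. Of 13 tested, 3 were lower at an unadjusted p under 0.05, against 1.47% of all genes. Of the same 13, 11 had a negative difference, against 48% of all genes, and the median was -0.77. Krt19, a keratin of simple epithelia, was at 38.9, 60.9 and 75.8 CPM with TM, 18.2, 22.3 and 28.7 CPM with AMD3100 and 52.2, 31.0 and 36.5 CPM under vehicle. The arms did not overlap, TM replicate 3 was highest, and the difference was -1.34 ± 0.28 (log2, SE; unadjusted p = 0.000978 in edgeR and an adjusted p of 0.013 in DESeq2). The basal keratin Krt5 stood at 6.13, 8.22 and 3.79 CPM with TM, 2.37, 0.335 and 1.94 CPM with AMD3100 and 4.23, 2.71 and 1.88 CPM under vehicle (-1.96 ± 0.63; edgeR unadjusted p = 0.0121). Krt13, a keratin of stratified mucosa, was near the limit of detection, at 0.272, 0.256 and 2.91 CPM with TM and 0, 0.0516 and 0.117 CPM with AMD3100, so its fitted difference of -4.25 rests mostly on TM replicate 3. Krt8 and Krt18, the paired keratins of simple epithelia, overlapped between the arms. Krt8 was at 572, 759 and 1048 CPM with TM, 557, 620.4 and 698 CPM with AMD3100 and 1190.2, 1345 and 794 CPM under vehicle (-0.34, 95% interval -0.90 to 0.22). Its partner Krt18 followed the same order of libraries in the TM arm, at 392, 500.3 and 642 CPM, and stood at 341, 408 and 457 CPM with AMD3100 (-0.35, 95% interval -0.85 to 0.15). In both genes TM replicate 1, rich in B cell genes, was the lowest of its arm and the vehicle tumours 1 and 2 were the highest of all 9. Without TM replicate 3 and AMD3100 replicate 2 the keratin median was -0.40 over 14 tested keratins, of which 10 were negative. At an unadjusted p under 0.05, 2 of the 14 were lower, against 1.11% of all genes in that fit. Without AMD3100 replicate 2 alone the keratin median was also -0.40. With the B cell level as a covariate the keratin median was -0.86, with 10 of 13 negative and 4 lower at an unadjusted p under 0.05, against 1.92% of all genes in that fit.

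Against vehicle, the keratin median was -0.84 in the AMD3100 arm and -0.093 in the TM arm. Both figures use the same vehicle tumours. Of keratinocyte markers, which skin in the sample would bring, 2 of 12 could be tested and their log2 differences had a median of -0.22.

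Junction genes had medians nearer to 0. Of 29 adherens and tight junction genes, 17 were below 0, against 48% of all genes, and the median was -0.046. At an unadjusted p under 0.05, 1 was lower, against 1.47% of all genes. That gene was Jup, plakoglobin, which links cadherins to the cytoskeleton, at 209, 223 and 288 CPM with TM and 163, 188 and 193 CPM with AMD3100 (-0.40 ± 0.15; edgeR unadjusted p = 0.0224). Epcam, an epithelial adhesion molecule, stood at 17.0, 25.97 and 47.5 CPM with TM and 11.4, 25.2 and 16.2 CPM with AMD3100, against 54.4, 18.7 and 22.9 CPM under vehicle, with a 95% interval of -1.89 to 0.33 for the log2 difference. E-cadherin, encoded by Cdh1, was at 44.7, 53.8 and 102 CPM with TM and 41.8, 56.0 and 47.8 CPM with AMD3100, against 94.2, 125 and 68.1 CPM under vehicle (95% interval -1.17 to 0.24). Of the 6 treated tumours, TM replicate 3 had the highest value of both genes, and the arms overlapped. Beta-catenin (Ctnnb1, -0.20) and the junctional adhesion molecule F11r (-0.25, edgeR unadjusted p = 0.0721) also overlapped. Among 16 desmosome and hemidesmosome genes 0 reached an unadjusted p under 0.05, 7 were below 0, and the median was 0.014, near that of all genes. Its members Dsg2, a desmosomal cadherin, and Perp had differences of 0.34 ± 0.23 and -0.52 ± 0.38.

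Of 27 epithelial transcription and splicing factors and related surface genes, 2 were lower at an unadjusted p under 0.05, against 1.47% of all genes. Below 0 were 20 of the 27, against 48% of all genes, and 6 had AMD3100 tumours wholly below TM tumours, against 3.69%. Their median was -0.28. Foxa1, a pioneer factor of luminal mammary cells, was at 9.76, 5.45 and 4.44 CPM with TM and 3.71, 1.29 and 3.73 CPM with AMD3100 (-1.17 ± 0.45; edgeR unadjusted p = 0.0271). Spint1, an inhibitor of epithelial serine proteases, stood at 74.4, 71.3 and 87.6 CPM with TM and 60.5, 60.4 and 66.0 CPM with AMD3100 (-0.32 ± 0.12; edgeR unadjusted p = 0.0282), and its relative Spint2 differed by -0.24 ± 0.12. For both Foxa1 and Spint1 the 2 arms did not overlap. The alveolar factor Elf5 was at 1.56, 2.98 and 1.27 CPM with TM and 0.615, 0.0516 and 0.991 CPM with AMD3100 (-1.79 ± 0.82), and the AP-2 factor Tfap2c at 4.77, 2.47 and 1.64 CPM with TM and 1.65, 0.902 and 2.04 CPM with AMD3100 (-0.95 ± 0.44). The lipocalin Lcn2 had values of 428, 201 and 422 CPM with TM and 129.8, 248 and 242 CPM with AMD3100 (-0.76 ± 0.37). Genes of the opposite, mesenchymal state were tested too. Of 20 genes of epithelial-mesenchymal transition, 0 reached an unadjusted p under 0.05, 12 were below 0 and the median was -0.072.

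**Figure D4:**
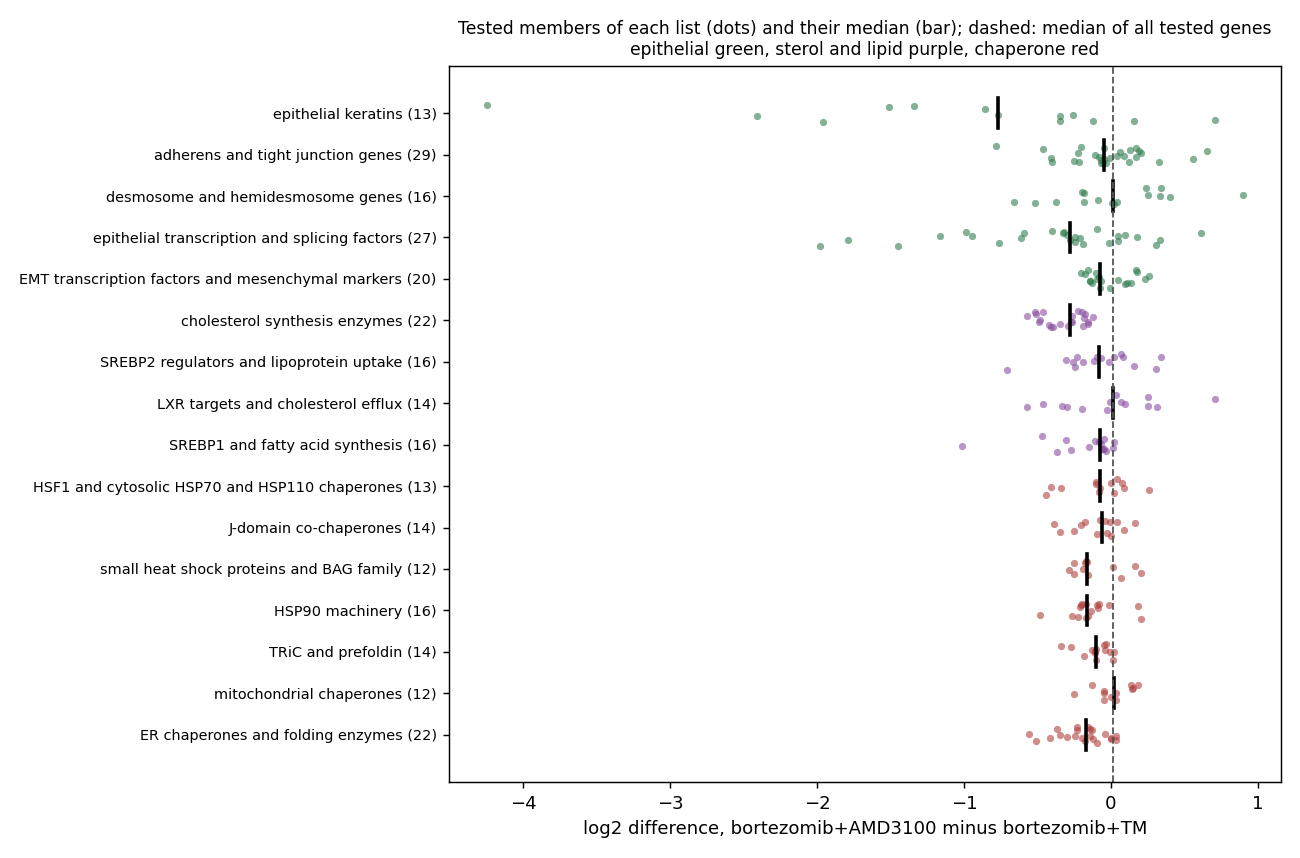
Log2 difference of AMD3100 minus TM (x) for each tested member (dot) of 16 lists (rows, number tested in brackets), with the list median (black bar) and the median of all tested genes (dashed line, at 0.012). All 22 cholesterol synthesis enzymes lie left of 0, within a narrow range, while keratins spread from -4.25 to 0.71.

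Sterol and lipid genes, in 4 lists with 68 tested members, had 2 lower at an unadjusted p under 0.05, against 1.47% of all genes, and 0 higher, against 1.39%. Below 0 were 77.9% of members, against 48% of all genes, and the median was -0.179. In 0 of the 68 did the arms separate, where 3.69% of all genes had AMD3100 tumours wholly below TM tumours and 3.68% wholly above. The enzymes of cholesterol synthesis had a negative difference in 22 of 22, against 48% of all genes, from -0.57 to -0.12 and with a median of -0.28. Such genes share regulators and so do not vary independently. Hmgcs1, which makes the precursor of mevalonate, was at 118, 174 and 219.7 CPM with TM, 95.05, 149 and 127 CPM with AMD3100 and 112, 97.6 and 105 CPM under vehicle (-0.46 ± 0.23; edgeR unadjusted p = 0.0722). Sqle, the epoxidase that opens the sterol branch, stood at 101, 137 and 179 CPM with TM, 80.2, 109.9 and 104 CPM with AMD3100 and 102, 102 and 91.7 CPM under vehicle (-0.51 ± 0.20; edgeR unadjusted p = 0.0302). The lanosterol demethylase Cyp51 had 64.7, 94.9 and 124 CPM with TM and 54.7, 77.7 and 65.4 CPM with AMD3100 (-0.52 ± 0.22; edgeR unadjusted p = 0.0384). In all 3 genes TM replicates 2 and 3 were high, and TM replicate 1 lay within the AMD3100 range, so the arms overlapped. Hsd17b7, a sterol ketoreductase, followed at -0.49 ± 0.24 (edgeR unadjusted p = 0.0667), while Lbr, a sterol reductase and nuclear envelope receptor, differed by -0.12 ± 0.10.

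Against vehicle, the median of the 22 enzymes was 0.47 in the TM arm and 0.13 in the AMD3100 arm, with the same vehicle tumours in both. The mean level of the list was 5.53, 5.99 and 6.30 log2 CPM in TM replicates 1 to 3, 5.51, 5.79 and 5.65 in AMD3100 replicates 1 to 3 and 5.58, 5.46 and 5.57 under vehicle. TM replicate 3, low in B cell genes, had the highest level, and within each arm the replicate 1 tumour, richest in B cell genes, had the lowest. These values moved with the TM libraries left out. Without TM replicate 1 the median was -0.53 and 15 of 22 were lower at an unadjusted p under 0.05, against 4.03% of all genes in that fit. Without TM replicate 3 the median was -0.12, with 0 of 22 lower at that p, against 1.03% of all genes, and 20 negative. Without TM replicate 3 and AMD3100 replicate 2 together it was -0.21, with 1 of 22 lower at that p, against 1.11% of all genes, and 20 negative. With the B cell level as a covariate it was -0.21, with 4 of 22 lower, against 1.92%. DESeq2 without TM replicate 1 called Cyp51 (adjusted p = 0.0375), the squalene synthase Fdft1 (0.0172) and the desaturase Scd2 (0.0304) lower with AMD3100. Of those, Fdft1 was chosen after its values were seen.

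**Figure D5:**
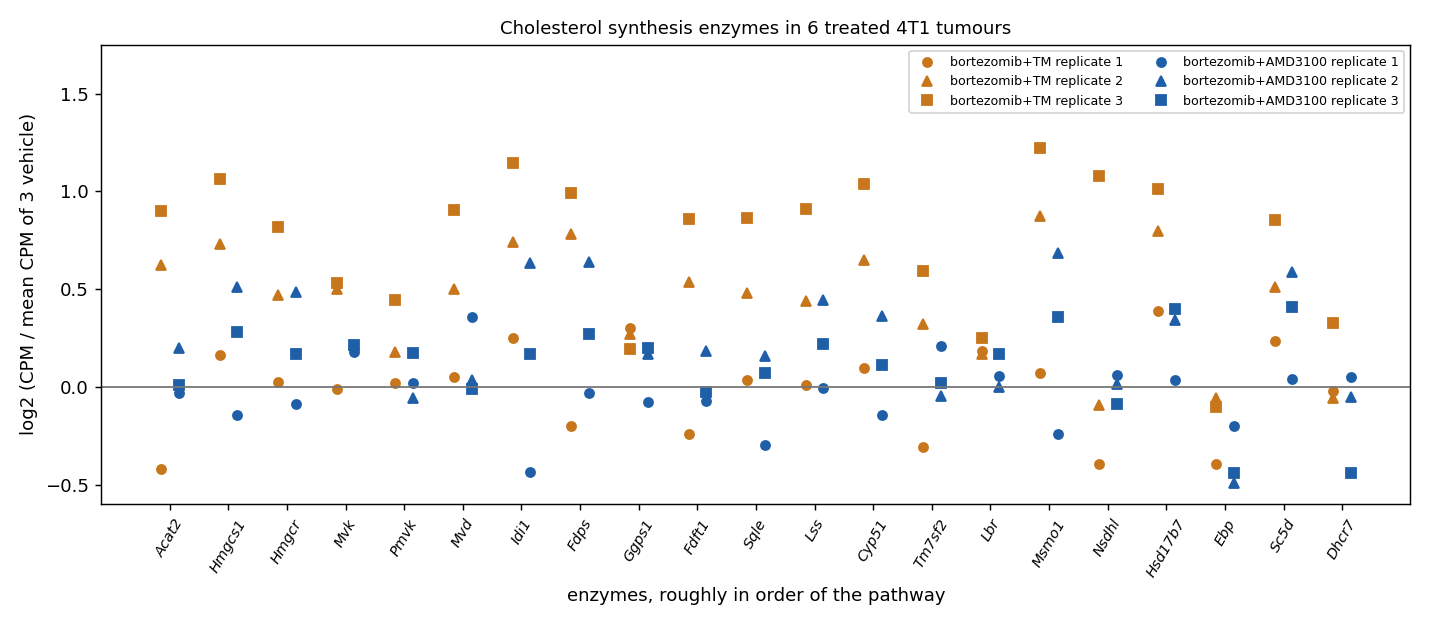
Log2 ratio of CPM to the mean of 3 vehicle tumours (y) for 21 cholesterol synthesis enzymes roughly in pathway order (x) in 3 TM tumours (orange) and 3 AMD3100 tumours (blue); circles, triangles and squares are replicates 1, 2 and 3 and the line at 0 is the vehicle mean. Orange squares lie above all 3 blue points for 20 of the 21 enzymes, triangles for 15 and circles for 2, and the arms overlap for every enzyme.

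The other 3 sterol lists were less uniform in sign, a contrast that was not tested. Of 16 genes for SREBP2 regulation and lipoprotein uptake, 10 were below 0 and the median was -0.082. The SREBP2 retention factors Insig1 and Insig2 differed by -0.23 ± 0.19 and -0.30 ± 0.14. Insig1 stood at 71.4, 74.3 and 103 CPM with TM and 59.2, 84.9 and 68.6 CPM with AMD3100. The log2 difference was 0.31 ± 0.15 for Npc1, which exports cholesterol from lysosomes. Targets of the sterol-sensing LXR receptors, 14 in number, split evenly with 7 below 0 and a median of 0.015, and the cholesterol exporter Abca1 differed by 0.25 ± 0.18. Of 16 genes of fatty acid synthesis 14 were below 0, with a median of -0.074, among them Elovl6 (-0.37 ± 0.19) and Scd2 (-0.47 ± 0.25). In these 3 lists 0 genes reached an unadjusted p under 0.05.

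Chaperone genes filled 7 lists with 103 tested members, of which 5 were lower at an unadjusted p under 0.05, against 1.47% of all genes, and 0 higher, against 1.39%. AMD3100 tumours lay wholly below TM tumours for 7, against 3.69% of all genes, and above for 0, against 3.68%. Below 0 were 74.8% of members, against 48% of all genes, with a median of -0.102. ER chaperones and folding enzymes held 4 of the 5. Of 22 tested, 19 were below 0, with a median of -0.17. Hspa5, known as BiP, the main HSP70 of the ER, was at 1602, 2004 and 1931 CPM with TM, 1269.8, 1570.3 and 1506 CPM with AMD3100 and 1753, 1481 and 1889 CPM under vehicle (-0.35 ± 0.16; edgeR unadjusted p = 0.0498). Dnajb9, a BiP co-chaperone, was at 31.4, 30.9 and 34.7 CPM with TM, 21.9, 22.6 and 21.4 CPM with AMD3100 and 27.2, 28.0 and 18.5 CPM under vehicle (-0.56 ± 0.17; edgeR unadjusted p = 0.00835). In both genes the AMD3100 values lay below every TM value. Creld2, induced by ER stress, stood at 90.7, 76.5 and 76.3 CPM with TM and 65.1, 65.5 and 52.3 CPM with AMD3100, where vehicle tumours had 63.1, 65.4 and 71.5 CPM (-0.41 ± 0.12; edgeR unadjusted p = 0.00801). Selenos, a selenoprotein of ER-associated degradation, was at 50.6, 48.0 and 45.3 CPM with TM and 38.9, 36.3 and 41.9 CPM with AMD3100 (-0.30 ± 0.11; edgeR unadjusted p = 0.0284). Creld2 was thus highest in the TM arm, with the AMD3100 arm around the vehicle values. The abundant ER chaperone Hsp90b1 differed by -0.23 ± 0.16, and its arms overlapped. Against vehicle the ER list's median was 0.20 in the TM arm and -0.032 in the AMD3100 arm. Plasma cells are known for abundant ER chaperones, and the B cell and plasma cell levels given above differed between the tumours. Of the 12 genes of that list 10 had a positive log2 difference, but the plasma cell genes Jchain and Mzb1 had -1.56 and -0.92. Jchain was at 700.7, 45.1 and 7.06 CPM with TM and 199.8, 11.2 and 44.1 CPM with AMD3100. The B cell level is the mean of the whole list, so plasma cell content by itself was not tested. With the B cell level as a covariate the median of the ER list was -0.15, with 20 of 22 negative and 4 lower at an unadjusted p under 0.05, against 1.92% of all genes in that fit. Without TM replicate 3 and AMD3100 replicate 2 the median was -0.26, with 21 of 22 negative and 4 at that p, against 1.11% of all genes lower there.

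Of 16 genes of the HSP90 machinery 14 were below 0, against 48% of all genes, with a median of -0.16. At an unadjusted p under 0.05, 1 was lower, against 1.47% of all genes. That gene, Chordc1, an HSP90 co-chaperone, was at 83.8, 126 and 98.7 CPM with TM, 61.7, 77.0 and 82.2 CPM with AMD3100 and 84.6, 85.9 and 81.2 CPM under vehicle (-0.48 ± 0.16; edgeR unadjusted p = 0.0139). Hsp90aa1, the inducible cytosolic HSP90, overlapped between the arms (-0.23 ± 0.21). In the cytosolic HSP70 list, 8 of 13 were below 0 and 0 reached that p, with a median of -0.075. The constitutive HSP70 gene Hspa8 was at 1196, 1792 and 1713 CPM with TM and 1189, 1471 and 1054 CPM with AMD3100 (-0.34 ± 0.18), and Hsph1, its nucleotide exchange factor, at 85.2, 140.0 and 125 CPM with TM and 71.0, 116 and 76.7 CPM with AMD3100 (-0.41 ± 0.23). Hspa1a and Hspa1b, the stress-inducible HSP70 genes, are near-identical copies between which reads can be split, so both are uncertain. Hspa1a was at 9.63, 19.2 and 16.6 CPM with TM and 6.99, 22.1 and 14.1 CPM with AMD3100 (-0.075, 95% interval -0.96 to 0.81). Hspa1b stood at 34.96, 162 and 79.4 CPM with TM and 23.6, 117 and 63.5 CPM with AMD3100 (-0.44, 95% interval -1.77 to 0.89). Both intervals span 0 by a wide margin, and the sign of both genes turned when TM replicate 2 was left out (0.13 and 0.25).

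The other chaperone lists held 0 genes at an unadjusted p under 0.05. Of 14 J-domain co-chaperones 11 were below 0, with a median of -0.060, among them Dnaja1 (-0.39 ± 0.20) and Dnajb2 (-0.20 ± 0.11). Of 12 small heat shock and BAG proteins 8 were below 0, with a median of -0.17. Its HSP70 co-chaperones Bag4 and Bag3 differed by -0.29 ± 0.18 and -0.16 ± 0.18. TRiC and prefoldin, which fold actin and tubulin, had 12 of 14 below 0 and a median of -0.10, with Cct5 at -0.11 ± 0.15. Mitochondrial chaperones had a median above 0, with 5 of 12 below 0, a median of 0.019 and Hspd1 at -0.25 ± 0.17. Hspb3 was too low to test, and Ero1a and Ero1b were not matched by symbol.

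The drugs' own targets overlapped between the arms. Psmb5, the proteasome subunit bound by bortezomib, which both arms received, was at 28.9, 36.1 and 39.5 CPM with TM and 29.4, 32.4 and 37.8 CPM with AMD3100 (-0.069, 95% interval -0.41 to 0.27). Of 32 proteasome subunits 0 reached an unadjusted p under 0.05 and 24 were below 0, with a median of -0.060. Cxcr4, the receptor blocked by AMD3100, stood at 39.4, 22.4 and 16.9 CPM with TM, 43.6, 21.99 and 29.1 CPM with AMD3100 and 23.5, 26.7 and 28.4 CPM under vehicle. In both arms the replicate 1 tumour was highest, as it was for the B cell genes, and the difference of 0.27 had a 95% interval of -0.46 to 1.00; it was -0.036 without AMD3100 replicate 1. Its ligand Cxcl12 was at 87.4, 50.4 and 21.7 CPM with TM and 105, 12.6 and 59.8 CPM with AMD3100 (95% interval -1.52 to 1.82), and the scavenger receptor Ackr3 differed by -0.22 ± 0.28.

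Of 20 copper genes, the metal carriers and metallothioneins of the cell, 0 reached an unadjusted p under 0.05. Their median was -0.10, with 16 below 0. Slc31a1, the main copper importer, was at 55.6, 59.1 and 67.0 CPM with TM and 47.6, 63.1 and 54.0 CPM with AMD3100 (-0.14, 95% interval -0.42 to 0.14). The metal-binding Mt1 stood at 72.1, 265 and 181 CPM with TM and 79.3, 199 and 189 CPM with AMD3100 (95% interval -1.19 to 0.89), and Mt2 at 47.9, 264 and 169 CPM with TM and 67.3, 196 and 170.0 CPM with AMD3100 (95% interval -1.40 to 1.10). Values of both metallothioneins overlapped between the arms, and the sign of both differences turned when AMD3100 replicate 1 or TM replicate 2 was left out. Among 18 targets of the antioxidant factor NRF2, 17 were below 0, against 48% of all genes, with a median of -0.086. Lower at an unadjusted p under 0.05 was 1 of the 18, against 1.47% of all genes. That gene was the quinone reductase Nqo1 (-0.76 ± 0.31, edgeR unadjusted p = 0.0365). It stood at 5.04, 7.01 and 6.44 CPM with TM and 3.65, 2.55 and 4.74 CPM with AMD3100. The heme oxygenase Hmox1 was at 85.7, 134 and 169 CPM with TM and 115, 136 and 110.0 CPM with AMD3100 (95% interval -0.60 to 0.38). Of 21 targets of the stress factor ATF4, 10 were below 0, against 48% of all genes, with a median of 0.045. At an unadjusted p under 0.05, 1 was higher with AMD3100, against 1.39% of all genes. Sesn2, a stress-induced inhibitor of mTORC1 signalling, was higher with AMD3100 at an unadjusted p of 0.0456, at 11.1, 10.1 and 12.1 CPM with TM and 20.6, 12.8 and 13.8 CPM with AMD3100 (0.50 ± 0.22).

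Lymphocyte genes varied widely within both arms. All 11 T cell genes had a positive difference, with a median of 0.70, and 0 reached an unadjusted p under 0.05. Cd8a, the co-receptor of cytotoxic T cells, was at 60.8, 26.7 and 20.2 CPM with TM, 93.4, 19.9 and 55.8 CPM with AMD3100 and 17.9, 5.16 and 32.2 CPM under vehicle. Its lowest treated tumours were the same 2 that were low in B cell genes, and the 95% interval of the difference was -0.93 to 2.23. Gzmb, a cytotoxic granule protease, stood at 12.5, 14.1 and 19.4 CPM with TM and 14.3, 12.2 and 11.8 CPM with AMD3100 (-0.26 ± 0.31), and Ifng, interferon gamma, at 1.66, 1.34 and 2.65 CPM with TM and 1.10, 2.09 and 1.40 CPM with AMD3100 (95% interval -1.26 to 0.66). Cd274, which encodes the checkpoint ligand PD-L1, was at 87.9, 83.1 and 94.7 CPM with TM and 84.9, 88.8 and 81.4 CPM with AMD3100 (-0.059, 95% interval -0.58 to 0.46). The 12 B cell and plasma cell genes had a median of 0.65 and the 12 cytotoxic genes 0.13. All 3 medians turned on single libraries. Without AMD3100 replicate 1 they were -0.12 for the T cell genes, -0.24 for the B cell genes and -0.081 for the cytotoxic genes, and without TM replicate 1 they were 1.67, 1.69 and 0.51. With the replicate block the B cell median was -0.67, with 12 of 12 genes negative.

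Other cells that a tumour sample can hold were followed by their markers. Medians were 0.18 for 14 macrophage genes, -0.014 for 12 neutrophil genes, 0.0030 for 10 dendritic cell genes, -0.083 for 12 endothelial genes and -0.18 for 14 fibroblast genes. In these 5 lists 0 genes reached an unadjusted p under 0.05. All 10 adipocyte genes were below 0, with a median of -0.44, on levels of 4.51, 2.09 and 2.99 log2 CPM in the TM arm and 3.59, 1.05 and 3.36 in the AMD3100 arm, which overlapped. Without TM replicate 1 the adipocyte median was 0.25, with 0 of 10 negative, and without AMD3100 replicate 2 it was -0.040, with 5 of 10 negative. Skeletal muscle genes, 5 of 12 tested, had 1 higher and 1 lower at an unadjusted p under 0.05, against 1.39% and 1.47% of all genes. The higher was Acta1, skeletal actin, near the limit of detection at 0.296, 0.0639 and 0.182 CPM with TM and 1.16, 1.96 and 0.291 CPM with AMD3100. The lower was the troponin gene Tnnt3, at 11.1, 7.03 and 10.3 CPM with TM and 5.76, 5.65 and 7.79 CPM with AMD3100 (-0.57 ± 0.25). Milk protein and other secretory genes, 5 of 10 tested, had a median of -0.79 with 0 at that p. The hemoglobin genes were at 0 or too low to test in these libraries. Interferon and antigen presentation genes had a median of -0.028 over 23 genes, cell cycle genes 0.077 over 30 and hypoxia and glycolysis genes -0.087 over 19, each with 0 genes at an unadjusted p under 0.05. Outside the epithelial, sterol and chaperone genes, 19 lists were followed through the alternatives, and 15 had a median of the other sign under at least 1. The 4 that kept their sign were the macrophage, mammary secretory, copper and NRF2 lists. The keratinocyte and erythroid lists, with 2 and 1 tested genes, were not followed.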

How the data were processed

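RNA was extracted from tumours with Trizol, poly(A)-selected and sequenced in 150-base pairs, per the labels. The authors deposited whole-number counts per gene, and the submitters' processing notes name featureCounts 2.0.1, MultiQC 1.11 and the mouse build GRCm38; the aligner and annotation are not given in the sources used here. Totals ran from 38407536 to 50735374 counts per library, with 58.0% to 66.1% of counts from 1 to 20 even. The table holds 25239 genes and 0 mitochondrially encoded ones.

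Counts of all 9 4T1 libraries were fitted in edgeR 4.0.16 (R 4.3.3) with TMM scaling, filterByExpr and the quasi-likelihood test of AMD3100 minus TM; p-values were Benjamini-Hochberg adjusted over 15846 genes and called under 0.05. Intervals are 95%. CPM used TMM-scaled totals; list levels used log2 CPM with a prior count of 2. DESeq2 1.42.0 and limma 3.58.1 were alternatives. The scripts were tested on simulated data.

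Named were up to 10 genes per direction, among genes called or, failing these, by unadjusted p, with arms that did not overlap and at least 5 CPM in the higher arm; from each list, those of smallest p and highest CPM; and a set of drug-target, epithelial, sterol, chaperone and immune genes whatever their result. Of 604 members of 37 lists, 598 were in the table and 563 were tested. The comparison and lists were chosen with earlier results of these data known. Same-numbered libraries did not pair (r = 0.60, -0.12 and -0.34). Some genes that the rule names are not reported here. No mouse sequence or gene length was used here.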

Additional observations from a re-analysis of the deposited data

How the results depend on the processing

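Every edgeR and limma-voom alternative, and an adjusted p under 0.1, left 0 genes called; DESeq2 called 6. Leaving out TM replicates 1, 2 and 3 and AMD3100 replicates 1, 2 and 3 in turn, DESeq2 called 55, 5, 2, 3, 2 and 5, fits that were added after the data were seen. The 454 genes at an unadjusted p under 0.05 became 723 with the B cell level as a covariate and 402 with the replicate block, with 0 called in both. Leaving out 1 library gave 322 to 1417 such genes in edgeR and 370 to 1705 in DESeq2, in both the most without TM replicate 1, and 732 in DESeq2 without AMD3100 replicate 2. The replicate block changed no call.

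Of the 16 epithelial, sterol and chaperone medians, 8 kept their sign under every alternative: the keratins, epithelial factors, cholesterol enzymes, SREBP2 and SREBP1 lists, HSP90 machinery, TRiC and ER chaperones. Leaving out 1 library, the keratin median ran from -0.89 to -0.40 in edgeR and from -0.89 to -0.39 in DESeq2, and the ER chaperone median from -0.27 to -0.13 and from -0.26 to -0.13. Without TM replicate 3 and AMD3100 replicate 2, also added then, these medians were -0.40 and -0.26.

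Some genes with intervals across 0 changed sign. Cxcl12 was at -0.23 with the replicate block, -0.062 in limma-voom and -0.23 with the B cell covariate, Mt2 at 0.023 in limma-voom, and, without TM replicate 3 and AMD3100 replicate 2, Psmb5 at 0.024 and Hmox1 at 0.0035. With 1 library left out in edgeR, the log2 difference ran for Cxcl12 from -0.55 to 0.68, Cxcr4 from -0.036 to 0.66, Hmox1 from -0.35 to 0.13, Hspa1a from -0.54 to 0.26, Hspa1b from -1.10 to 0.25, Ifng from -0.60 to 0.028, Mt1 from -0.53 to 0.30, Mt2 from -0.60 to 0.41 and Psmb5 from -0.20 to 0.031. In DESeq2 with 1 library left out, the values of changed sign were, in the same order, -0.229 and -0.555, -0.035, 0.12, 0.14 and 0.26, 0.26, 0.021, 0.31 and 0.17, 0.42 and 0.19, and 0.023 and 0.014. The cause of these changes was not tested.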

Other observations

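Rnase2a and Ccl24, the genes with the smallest p, are both produced by myeloid cells, so 2 further lists were drawn up after the values were seen, which makes their counts a description only. The first list held 12 genes linked to alternatively activated macrophages, Cd163, Folr2 and Lyve1 among them. It was not limited to genes induced by interleukin-4. All 12 genes had a negative log2 difference of AMD3100 minus TM, against 48% of all genes, with a median of -0.589. Their mean level was 4.97, 4.41 and 4.88 log2 CPM in TM replicates 1 to 3, 4.33, 3.72 and 3.89 in AMD3100 replicates 1 to 3 and 5.24, 5.24 and 4.73 under vehicle. The level was thus below every TM and vehicle tumour in each AMD3100 tumour, most narrowly at 4.33 in AMD3100 replicate 1 against 4.41 in TM replicate 2. Taken singly, 1 of the 12 genes had AMD3100 tumours wholly below TM tumours, against 3.69% of all genes. The mean includes Chil3 and Retnla, the members with the largest differences, and whether the arms separate without them was not tested. At an unadjusted p under 0.05 in edgeR, 2 of the 12, Retnla and Chil3, were lower, against 1.47% of all genes, and 0 after adjustment. The 14 general macrophage and monocyte genes, by contrast, had a median of 0.184. Mrc1 and Cd163 are members of both lists, and the contrast was not tested.

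Chil3, a chitinase-like secreted protein, was at 6.03, 87.1 and 128 CPM with TM, 16.0, 6.93 and 8.10 CPM with AMD3100 and 44.3, 50.7 and 26.2 CPM under vehicle (-2.83 ± 0.85, log2 and SE). TM replicate 1 was the lowest of the 9, so the arms overlapped. Retnla, a resistin-like protein from the same macrophage list, had a difference of -2.26 ± 0.61. It stood at 19.5, 2.19 and 8.08 CPM with TM, 1.82, 2.37 and 2.02 CPM with AMD3100 and 21.4, 17.1 and 16.8 CPM under vehicle. Here TM replicate 2 lay among the AMD3100 tumours. Arg1, arginase 1, differed by -0.45 ± 0.24, and the mannose receptor Mrc1 by -0.59 ± 0.43. DESeq2 called Chil3 without TM replicate 1 (-3.37, adjusted p = 2.59e-15) and Retnla without TM replicate 2 (-2.73, adjusted p = 4.48e-09). All 4 genes were chosen after their values were seen.

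Of 10 eosinophil genes 4 could be tested, with 2 below 0 and a median of -0.029. Their level was 0.29, -0.98 and -1.69 log2 CPM in the TM arm and -0.27, -1.76 and -0.65 in the AMD3100 arm, so the arms overlapped.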
